A study of Petromyzon marinus with 2 samples.

Results

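The SLC6A9-only cells are a set of amacrine-like neurons of the adult sea lamprey (Petromyzon marinus) retina that carried transcripts of the vesicular inhibitory transporter SLC32A1 and of the glycine transporter SLC6A9 (gene MSTRG.7418), and none of the second glycine transporter SLC6A5 (MSTRG.11883). A cell was taken when its barcode held at least 2000 UMIs (unique molecular identifiers, each counted as 1 captured transcript), at least 1 UMI of SLC32A1, at least 3 of SLC6A9, 0 of SLC6A5 and at most 1 each of CHAT and CRHBP. The cells were thus chosen by their own counts of these 5 genes, whose levels are a description and no finding. The rule gave 414 of 28891 cells, 193 in replicate 1 and 221 in replicate 2. They were set against 1537 SLC6A5 cells, with at least 1 SLC32A1 and at least 3 SLC6A5 UMIs, and against 1266 cells with neither transporter, which had SLC32A1 but 0 SLC6A9 and 0 SLC6A5 UMIs and the same limits on CHAT and CRHBP. The study profiled retinas of adult lampreys by droplet-based 3′ single-cell RNA-seq in 2 libraries, 1 per replicate, with no second condition. The labels do not say whether the libraries came from separate animals. The paper calls them biological replicates and reports that at least 2 animals gave cells, without stating which animals went into each library. The p-values measure only how far the differences between groups varied between these 2 libraries, pooled over the groups. A shift shared by all groups of a library was taken out by the fit and does not enter them. In each library the UMIs of a group were summed, which gives 2 sums per group, and levels are given in CPM, the UMIs of a gene scaled to the same total UMI count in every sum. A level in such a sum cannot tell fewer cells with a transcript from less of it in each cell.

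Amacrine cells are the inhibitory interneurons of the inner retina, and in jawed vertebrates most of them release either GABA or glycine. SLC32A1 loads both transmitters into synaptic vesicles, while SLC6A9 (GlyT1) and SLC6A5 (GlyT2) return released glycine to the cell. In the mammalian retina SLC6A9 is the transporter of glycinergic amacrine cells, and SLC6A5 is better known from glycinergic neurons of the brain stem and spinal cord. GAD1 makes GABA from glutamate, CHAT makes acetylcholine and marks starburst amacrine cells, and CRHBP binds corticotropin-releasing hormone.

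The 2 libraries held 12933 and 15958 barcodes and 87882951 and 117426390 UMIs. A median of 6686 and 6379 UMIs was counted per SLC6A9-only cell in replicates 1 and 2, against 8542 and 8122 per SLC6A5 cell and 6246 and 5211 per cell with neither transporter. The libraries shared 83 barcodes, of which 0 were members in both and 2 were members in 1 of them. No doublet caller was run, and the member cells held at most 6407 and 6640 genes. Of 12 amacrine marker genes only 4 had a name in the files. SLC32A1, SLC6A9 and SLC6A5 among them were set by the rule, and the amacrine-like name rests on those alone. GAD1, the remaining marker, stood at 346 and 550 CPM in SLC6A9-only cells and does not back the name. It was not limited to cells with SLC32A1, since the 14163 cells with at least 2000 UMIs and 0 SLC32A1 held it at 1673 CPM. Marker genes of other retinal classes were low in the member sums. Photoreceptor markers summed to 5.97 and 18.1 CPM over 5 genes with RBP3 at 0, ganglion cell markers to 28.5 and 20.9 CPM over 4 genes with POU4F2 at 0, and horizontal cell markers to 6.63 and 6.79 CPM over 3 genes. Müller glia markers (CLU, GLUL, HES1, CRYM and AQP4) summed to 342 and 824 CPM in SLC6A9-only cells, with none of the 5 at 0. The sums were 165 and 263 CPM in SLC6A5 cells and 373 and 828 CPM in cells with neither transporter. HES1, a glial transcription factor, stood at 3.98 and 3.40 CPM in SLC6A9-only cells. It was at 1.67 and 1.73 CPM in SLC6A5 cells and 2.94 and 7.22 CPM in cells with neither transporter.

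No gap in the counts of SLC6A9 lay at the limit the rule set. Of cells that met every other condition, 1266 had 0 SLC6A9 UMIs, 352 had 1, 182 had 2 and fell just outside, and 119 had 3 and fell just inside. Member cells held a median of 4 SLC6A9 UMIs, with quartiles of 3 and 7 and a highest count of 28. Their level of SLC6A9 was 759.7 and 712 CPM, against 312 and 308 CPM in SLC6A5 cells, and SLC32A1 stood at 504 and 437 CPM, against 466 and 511 CPM. These 2 values and those of SLC6A5, CHAT and CRHBP were fixed or bounded by the rule and were not tested. The limits on CHAT and CRHBP removed more cells than they kept. Of 1141 cells with SLC32A1, at least 3 SLC6A9 and 0 SLC6A5 UMIs, 340 had more than 1 CHAT UMI, 655 had more than 1 CRHBP UMI and 268 had both.

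**Figure D1:**
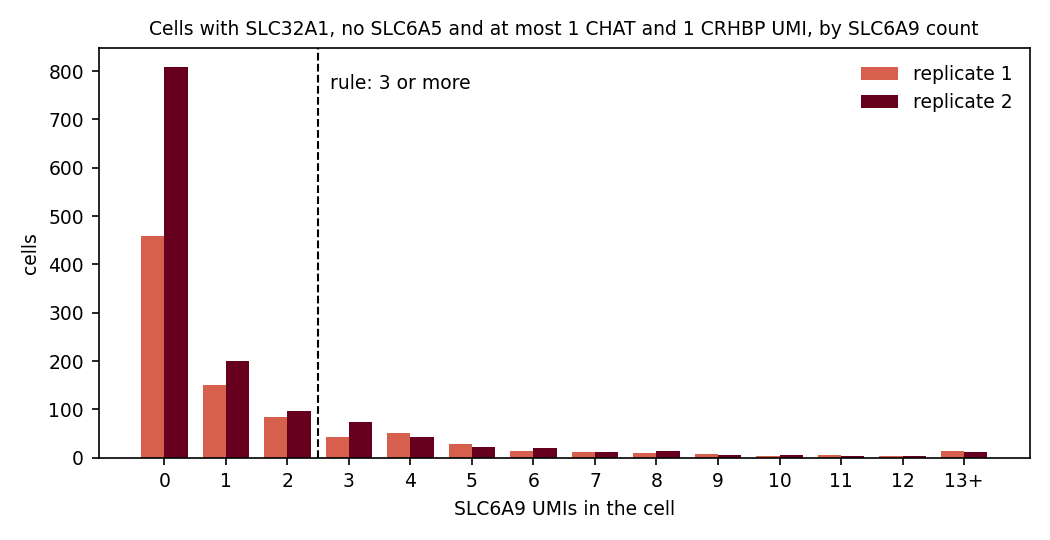
Number of cells (y axis) by the SLC6A9 UMIs they held (x axis, counts of 13 and above pooled), in replicate 1 and replicate 2, for cells with at least 2000 UMIs, SLC32A1, no SLC6A5 and at most 1 CHAT and 1 CRHBP UMI. There is no gap at the dashed line of the rule's limit, with 182 cells at 2 UMIs and 119 cells at 3.

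SLC6A9-only cells made up 2.16% of the 8915 cells with at least 2000 UMIs in replicate 1 (exact 95% interval 1.87 to 2.49%) and 1.67% of 13216 in replicate 2 (1.46 to 1.91%), a mean of 1.92% ± 0.348 (SD, n = 2). Of the cells with SLC32A1 they were 5.43% in replicate 1 (4.71 to 6.23%) and 5.01% in replicate 2 (4.38 to 5.69%). The intervals cover counting error only. A rule on counts follows depth, and with every cell thinned to 2000 UMIs the rule took 0.684% and 0.643% of the cells. With 1 UMI less or 2 more asked of SLC6A9 the mean share was 2.76% and 0.934%.

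Free RNA in the droplets can set a floor for such counts, and it was not told apart from doublets here. Among 24 cells gated as photoreceptors by at least 3 UMIs of RCVRN, which should lack these genes, 4 had a UMI of SLC32A1 and 2 a UMI of SLC6A9, at 14.1 and 7.03 CPM and a median of 11961 UMIs per cell. The 470 cells gated as Müller glia by HES1 and at least 10 GLUL UMIs held SLC6A9 in 40.4% of cells at 41.9 CPM, with a median of 15181 UMIs. In the same glia SLC32A1 was found in 12.6% of cells at 13.2 CPM and SLC6A5 in 5.11% at 4.97 CPM. Whether the SLC6A9 of the glia is free RNA or their own transcript was not tested, so it is not taken as a floor. The level of SLC6A9 in SLC6A9-only cells was set by the rule and is not compared with these.

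GAD1 was lower in SLC6A9-only cells than in cells with neither transporter, and its difference from SLC6A5 cells did not pass the test. GAD1 stood at 346 and 550.0 CPM in SLC6A9-only cells, against 481 and 465 CPM in SLC6A5 cells, and the groups overlapped (log2 fold change -0.10 ± 0.20, edgeR adjusted p = 0.826). Against cells with neither transporter, at 1832 and 1396 CPM, it fell (log2 fold change -1.90 ± 0.20, edgeR adjusted p = 0.000645), and it fell also when 3 SLC32A1 UMIs were asked of every cell (log2 fold change -1.38, edgeR adjusted p = 0.017). The cells with neither transporter held a median of 1 SLC32A1 UMI. GAD1 stood at 1921 and 1501 CPM in cells with at least 2000 UMIs and 0 SLC32A1. Which kinds of cell the group with neither transporter holds was not tested. The 2 libraries differed in GAD1. Of member cells 60.6% in replicate 1 and 40.7% in replicate 2 had 0 GAD1 UMIs, and 5.18% and 11.3% had at least 10, against 13.4% and 12.5% of SLC6A5 cells and 45.2% and 31.8% of cells with neither transporter. A share with a UMI of 45.8% in the photoreceptor gate, at 56.2 CPM, shows that single GAD1 UMIs are not separable from free RNA here, so the 35 member cells with at least 10 UMIs are counted apart.

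**Figure D2:**
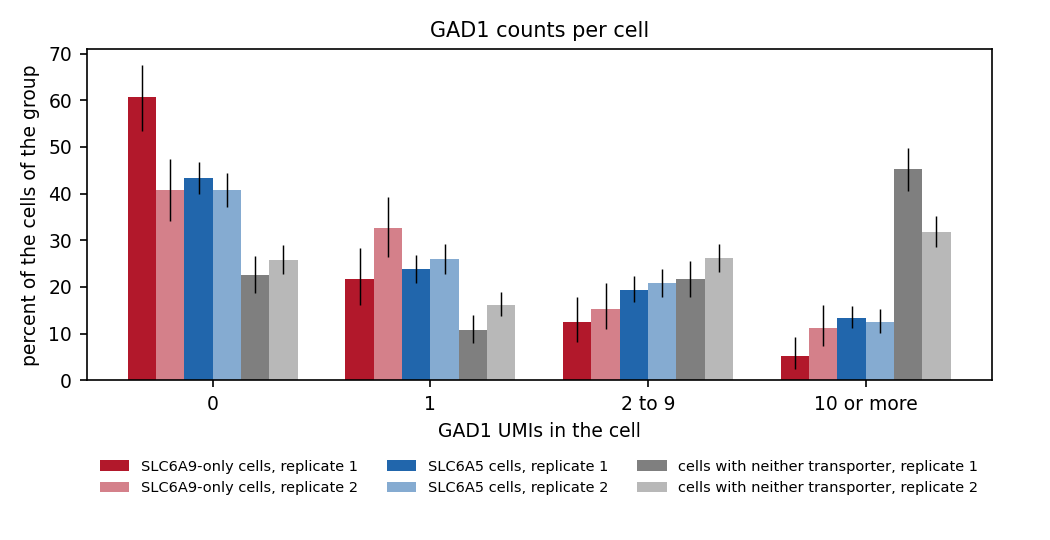
Percent of the cells of each group (y axis) with 0, 1, 2 to 9 or at least 10 GAD1 UMIs (x axis), with exact 95% binomial intervals for counting error, for SLC6A9-only cells, SLC6A5 cells and cells with neither transporter in each replicate. At least 10 UMIs were found in 5.18% and 11.3% of SLC6A9-only cells, against 45.2% and 31.8% of cells with neither transporter.

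None of the other genes of GABA and glycine handling was called by edgeR in either comparison. Of 9 genes on the GABA list 4 had a name in the files, and of the 3 tested outside the rule 0 were called against SLC6A5 cells, while GAD1 alone was called, lower, against cells with neither transporter. ABAT, which breaks GABA down, was at 367 and 333 CPM in SLC6A9-only cells, against 483 and 459.7 CPM in SLC6A5 cells and 228 and 232 CPM in cells with neither transporter, and neither difference reached 2-fold (log2 fold change -0.45 ± 0.09, edgeR adjusted p = 0.015 against SLC6A5 cells). ALDH5A1, the next enzyme of that path, was at 7.96 and 15.3 CPM in SLC6A9-only cells, against 12.3 and 8.37 CPM in SLC6A5 cells. Of 12 genes on the glycine list 7 had a name, and 0 of the 3 tested outside the rule were called in either comparison. SHMT2, which turns serine into glycine in mitochondria, was at 93.5 and 117 CPM in SLC6A9-only cells, against 72.3 and 107 CPM in SLC6A5 cells, and its cytosolic partner SHMT1 was at 1.99 and 4.53 CPM, against 0.239 and 2.60 CPM. DLD, a subunit of the glycine cleavage system, was at 93.5 and 73.6 CPM in SLC6A9-only cells, against 81.2 and 78.4 CPM in SLC6A5 cells. AMT, another part of that system, gave 2 UMIs in all members, and SLC7A10, a transporter of glycine and small amino acids, gave 0.

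Against SLC6A5 cells the SLC6A9-only cells stood out by higher TH, PRTG, MFSD4A, PLA2G3 and DACH1 and by lower CARTPT, CYP26B1.1, CDH23 and PXDN. Of 13539 genes tested outside the rule, 763 (5.64%) were called, meaning at least 2-fold apart with an adjusted p under 0.05, 479 (3.54%) higher and 284 (2.1%) lower in SLC6A9-only cells (edgeR quasi-likelihood test with the library as a block, Benjamini-Hochberg adjustment). Only 115 of the higher and 62 of the lower genes have a name. In log2 fold changes below, ± gives the standard error. Without the 11 member cells and the 17 SLC6A5 cells that held at least 5 UMIs of the glial gene CLU, 328 genes were higher and 284 lower, and 298 of the 479 and 238 of the 284 were called again. Without the library block 129 genes were higher and 124 lower, all of them among the first calls, and 28 of the 48 named calls were lost, among them ADAMTSL5, BMPER, INKA1, CARTPT, CYP26B1.1, HTR4, BCL11A and PRDM13. In the direction of the call, 762 of 763 genes differed in each library on its own, and 628 and 662 of them by at least 2-fold in replicate 2 and in replicate 1. The calls were made on these same 2 libraries, so this agreement follows largely from the selection and is no separate evidence.

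TH, the rate-limiting enzyme of dopamine synthesis, had the largest increase of the named genes. It stood at 25.2 and 26.0 CPM in SLC6A9-only cells, against 0.835 and 1.01 CPM in SLC6A5 cells (log2 fold change 4.74 ± 0.35, edgeR adjusted p = 0.000132), and at 2.94 and 4.40 CPM in cells with neither transporter. At least 1 TH UMI was found in 60 member cells, 25 in replicate 1 and 35 in replicate 2, and no cell had more than 4. DDC, the enzyme after TH in that path, stood at 18.6 and 6.22 CPM in SLC6A9-only cells, against 8.23 and 6.21 CPM in SLC6A5 cells, which did not pass the test (log2 fold change 0.71 ± 0.38, edgeR adjusted p = 0.311). A DDC UMI was found in 4 of the 60 cells with TH (6.67%, exact 95% interval 1.85 to 16.2%) and in 28 of the 354 without (7.91%, 5.32 to 11.2%), at medians of 7078 and 6366 UMIs per cell. These intervals overlap. DBH, which makes noradrenaline, gave 0 UMIs in the member cells.

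PRTG, a membrane protein of the immunoglobulin superfamily, had the highest level of the genes that rose most. It stood at 577 and 357 CPM in SLC6A9-only cells, against 32.4 and 33.5 CPM in SLC6A5 cells (log2 fold change 3.78 ± 0.17, edgeR adjusted p = 2.38e-05), and 73.9% of member cells held it, against 12.4% of SLC6A5 cells (53.1% and 3.84% with each cell thinned to 2000 UMIs). MFSD4A, a membrane protein of the major facilitator family, was at 311 and 247 CPM in SLC6A9-only cells, against 22.2 and 29.0 CPM in SLC6A5 cells (log2 fold change 3.43 ± 0.19, edgeR adjusted p = 3.21e-05). PLA2G3, a secreted phospholipase, was at 192 and 109 CPM in SLC6A9-only cells, against 18.8 and 10.5 CPM in SLC6A5 cells (log2 fold change 3.34 ± 0.13, edgeR adjusted p = 1.00e-05). In all 3 genes both member sums lay above both sums of the SLC6A5 cells. DACH1, a transcription factor of the retinal determination network, was at 447 and 279.5 CPM in SLC6A9-only cells, against 71.3 and 61.5 CPM in SLC6A5 cells (log2 fold change 2.41 ± 0.12, edgeR adjusted p = 2.74e-05), and 72.9% of member cells held it, against 31.0% of SLC6A5 cells (45.4% and 9.43% when thinned). CRYBA1, a beta-crystallin first known from the lens, was at 88.2 and 75.8 CPM in SLC6A9-only cells, against 2.74 and 5.49 CPM in SLC6A5 cells (log2 fold change 4.34 ± 0.37, edgeR adjusted p = 0.000241). ERCC6L, a DNA translocase of dividing cells, was at 38.5 and 34.0 CPM in SLC6A9-only cells, against 3.82 and 4.33 CPM in SLC6A5 cells (log2 fold change 3.13 ± 0.24, edgeR adjusted p = 0.000168), while the dividing cell markers CCNB2, UBE2C and PLK1 together stood at 2.65 and 1.70 CPM in SLC6A9-only cells, against 0.596 and 1.15 CPM in SLC6A5 cells.

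The remaining 5 of the 12 largest named increases were ADAMTSL5, BMPER, CCN2, INKA1 and NELL1. ADAMTSL5, a secreted matrix protein, was at 55.1 and 15.8 CPM in SLC6A9-only cells, against 5.96 and 2.60 CPM in SLC6A5 cells (log2 fold change 2.98 ± 0.25, edgeR adjusted p = 0.000224). BMPER, which binds bone morphogenetic proteins, was at 57.1 and 14.1 CPM in SLC6A9-only cells, against 9.42 and 3.32 CPM in SLC6A5 cells (log2 fold change 2.40 ± 0.34, edgeR adjusted p = 0.00309). Both were several-fold higher in replicate 1 than in replicate 2 within SLC6A9-only cells, and neither was called without the library block. CCN2, a matrix-associated growth factor, had a log2 fold change of 2.68 ± 0.37, the kinase inhibitor INKA1, at 48.4 and 16.4 CPM in SLC6A9-only cells, of 2.22 ± 0.32 and the secreted glycoprotein NELL1 of 2.20 ± 0.21.

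Among the genes that fell, CARTPT, the precursor of the CART neuropeptides, stood at 15.3 and 70.2 CPM in SLC6A9-only cells, against 204 and 314 CPM in SLC6A5 cells (log2 fold change -2.67 ± 0.25, edgeR adjusted p = 0.000404). It was found in 10.9% of member cells, against 43.4% of SLC6A5 cells (6.28% and 28.0% when thinned), and the 2 member sums differed several-fold from each other. CYP26B1.1, a retinoic acid hydroxylase whose suffix marks it as 1 of several lamprey copies that reads may be split over, was at 7.96 and 25.5 CPM in SLC6A9-only cells, against 92.7 and 138 CPM in SLC6A5 cells (log2 fold change -2.82 ± 0.21, edgeR adjusted p = 0.000142). PXDN, a peroxidase that crosslinks collagen, was at 4.64 and 6.22 CPM in SLC6A9-only cells, against 103 and 43.3 CPM in SLC6A5 cells (log2 fold change -3.67 ± 0.29, edgeR adjusted p = 0.000173). For these 3 genes each member sum lay below each sum of the SLC6A5 cells. CDH23, a cadherin, was at 19.2 and 16.4 CPM in SLC6A9-only cells, against 71.2 and 81.0 CPM in SLC6A5 cells (log2 fold change -2.12 ± 0.34, edgeR adjusted p = 0.00536). ANO7, of the anoctamin family, was at 25.2 and 44.1 CPM in SLC6A9-only cells, against 128 and 138 CPM in SLC6A5 cells (log2 fold change -1.95 ± 0.17, edgeR adjusted p = 0.000292), and the muscarinic acetylcholine receptor CHRM4 at 20.6 and 32.8 CPM in SLC6A9-only cells, against 113 and 87.8 CPM in SLC6A5 cells (log2 fold change -1.89 ± 0.21, edgeR adjusted p = 0.000922). Further decreases, with log2 fold changes between -2.11 and -1.85, were those of the secreted proteins ISM1 and FAM3C, the transcription factor TFAP2D, the sulfotransferase UST and BAIAP3, a protein of dense-core vesicle release.

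**Figure D3:**
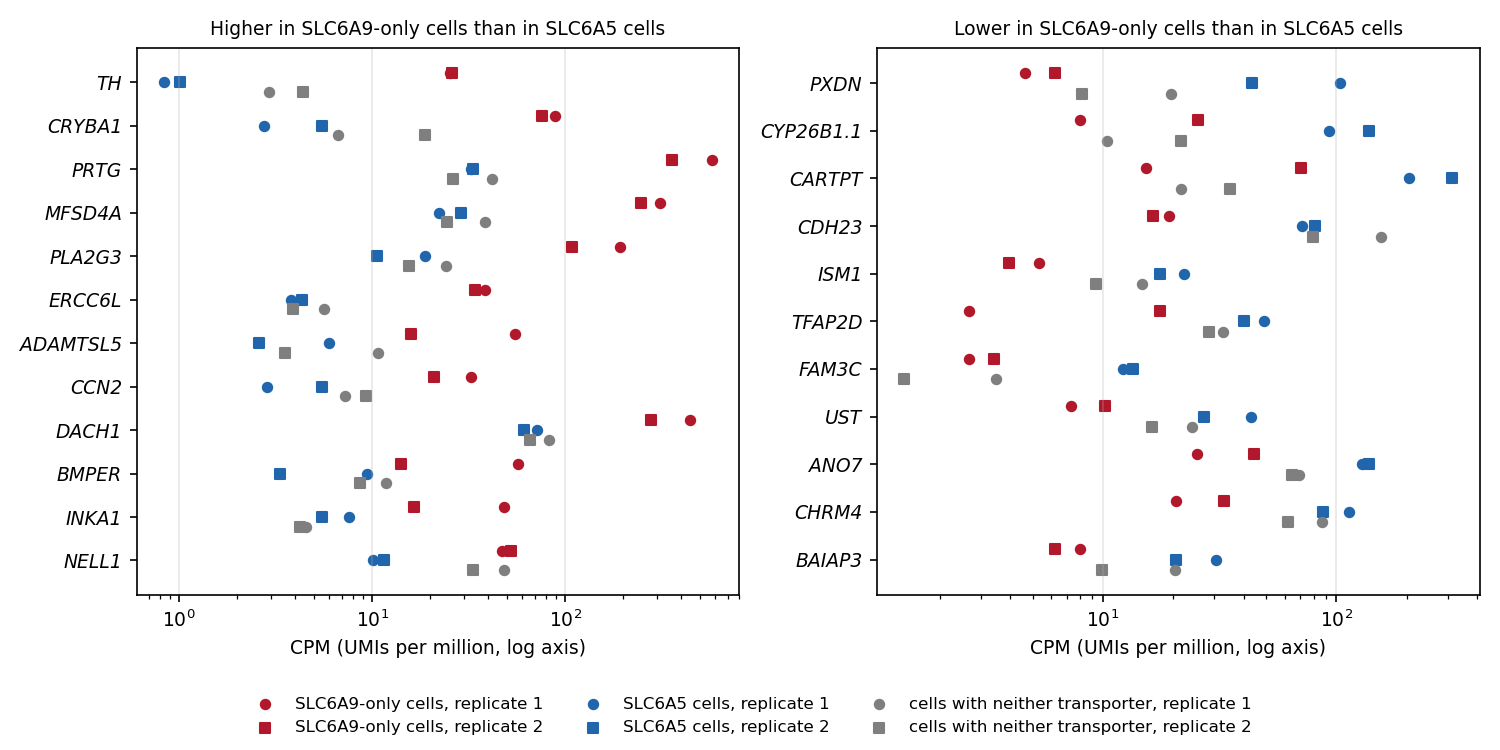
Level in CPM on a log axis (x axis) of named genes with the largest increases (left panel) and decreases (right panel) in SLC6A9-only cells relative to SLC6A5 cells, for SLC6A9-only cells, SLC6A5 cells and cells with neither transporter, 1 point per library. In every row the 2 points of SLC6A9-only cells lie on 1 side of the 2 points of SLC6A5 cells, and the widest gap on the left is that of TH, at 25.2 and 26.0 CPM against 0.835 and 1.01 CPM. Rows were chosen among called genes with the same direction in both libraries, so the separation follows largely from that choice.

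SLC6A9-only cells were limited in CHAT and CRHBP and SLC6A5 cells were not, and the comparison was repeated with the same limit on both. SLC5A7, which takes up choline for acetylcholine synthesis, stood at 4.64 and 6.22 CPM in SLC6A9-only cells, against 188 and 101 CPM in SLC6A5 cells (log2 fold change -4.68 ± 0.27, edgeR adjusted p = 3.32e-05). With the SLC6A5 cells limited in the same way, to 526 and 562 cells, its log2 fold change was 0.15. The homeodomain factor ISL1 went the same way, with 0.33 in place of -2.69, as did the transcription factor ZFHX3, with 0.09 in place of -1.03, and the engulfment adaptor GULP1, with 0.11 in place of -1.76. With the limit on both groups 544 genes were higher and 262 lower, 433 and 212 of them shared with the first calls, and 37 of the 48 named genes called stayed called. TFAP2D, at -0.92 in place of -2.09, the kinase DAPK1, at -0.88 in place of -1.16, and SYT7, a calcium sensor of vesicle release, at 0.97 in place of 1.02, were among those that lost the call. TH, CRYBA1, PRTG, MFSD4A, PLA2G3 and DACH1 were then at 4.84, 4.77, 3.87, 3.80, 3.29 and 2.59 on the log2 scale, and CARTPT, CYP26B1.1 and CDH23 at -3.09, -3.10 and -1.95, all still called.

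With no limit in any group, a setting chosen after the data were seen, 486 and 655 cells had SLC6A9 without SLC6A5, and 32 of the 48 named genes stayed called. TH kept 4.56, PRTG 3.34 and DACH1 2.23, whereas CHRM4 at -0.89 and the transcription factor BCL11A at 0.94 no longer passed. PXDN moved to -1.43. The glial gene CLU was called higher in SLC6A9-only cells, at 149 and 505 CPM in SLC6A9-only cells, against 50.7 and 118 CPM in SLC6A5 cells (log2 fold change 1.84 ± 0.13, edgeR adjusted p = 0.000112), and without the cells that held at least 5 of its UMIs its log2 fold change was -0.18. Leaving out cells by their CLU count caps CLU in both groups, so that value cannot tell whether CLU differed. That setting too was chosen after the data were seen, and the part of glial RNA in the other differences was not tested beyond it. CRYM, a second glia marker, also lost its call in that case, with 0.73. Cells with neither transporter held CLU at 199 and 511 CPM.

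**Figure D4:**
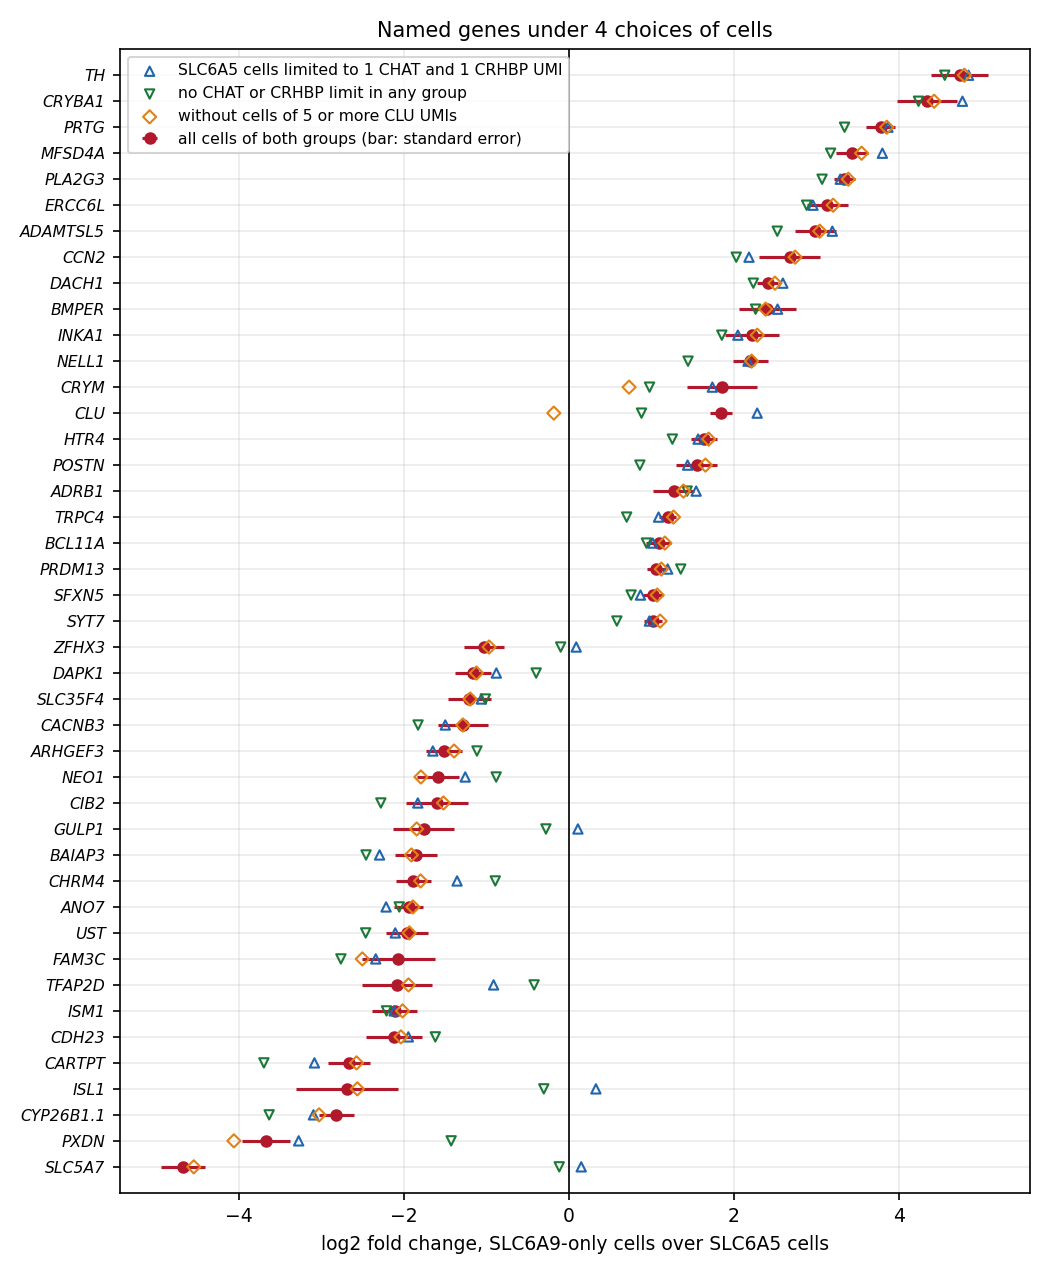
Log2 fold change of SLC6A9-only cells over SLC6A5 cells (x axis) for genes called in the comparison (rows), with all cells of both groups (filled points, bars give the standard error), with the SLC6A5 cells limited to 1 CHAT and 1 CRHBP UMI, with no such limit in any group, and without cells of at least 5 CLU UMIs. SLC5A7, ISL1, GULP1 and ZFHX3 move to between 0.09 and 0.33 when both groups are limited, and TH stays between 4.56 and 4.84. ESRRB and GJA3, with 0 UMIs in the members, are left out.

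Among gene lists, transcription factors held the largest number of calls. Of 141 factors listed 36 had a name in the files, and of 28 tested 4 were higher and 8 lower in SLC6A9-only cells than in SLC6A5 cells, with a median log2 fold change of -0.66, against -0.01 over all genes tested. Among the higher ones were DACH1, BCL11A and PRDM13. PRDM13, which in the mouse is needed for GABAergic and glycinergic amacrine cells, was at 335 and 207 CPM in SLC6A9-only cells, against 139 and 114 CPM in SLC6A5 cells (log2 fold change 1.06 ± 0.12, edgeR adjusted p = 0.000894), and BCL11A at 423 and 246 CPM in SLC6A9-only cells, against 156 and 147 CPM in SLC6A5 cells (log2 fold change 1.09 ± 0.15, edgeR adjusted p = 0.00289). Among the lower ones were TFAP2D, ESRRB, ISL1, BARHL1, FOXP2, NFIA and ZFHX3. Of these, TFAP2D, ISL1 and ZFHX3 were not called once the SLC6A5 cells were limited in CHAT and CRHBP. ESRRB, an orphan nuclear receptor, had 0 UMIs in member cells, against 170 in SLC6A5 cells at 4.53 and 19.1 CPM, which makes it at least 12.1-fold lower when 3 UMIs over the group are taken as the floor, and it did not pass the filter on low counts once the SLC6A5 cells were limited.

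Calls on the lists of transmitter signalling are given as counts, beside the 5.64% called over all genes. Of 7 genes of monoamine and nitric oxide signalling tested, TH, HTR4 and ADRB1 were higher and 0 were lower. HTR4, a serotonin receptor, was at 53.1 and 35.1 CPM in SLC6A9-only cells, against 17.1 and 11.0 CPM in SLC6A5 cells (log2 fold change 1.63 ± 0.16, edgeR adjusted p = 0.000475), and the adrenergic receptor ADRB1 at 13.3 and 17.0 CPM in SLC6A9-only cells, against 5.61 and 6.79 CPM in SLC6A5 cells (log2 fold change 1.27 ± 0.25, edgeR adjusted p = 0.0142). Of 6 acetylcholine genes outside the rule 0 were higher and 2, SLC5A7 and CHRM4, were lower. The rule capped CHAT in SLC6A9-only cells alone, and SLC5A7 was not called once the SLC6A5 cells were limited in the same way. With no such limit in any group neither SLC5A7 nor CHRM4 was called, so these counts are no result on acetylcholine signalling. Of 8 peptide genes only CARTPT was called. None of the glycine, GABA or glutamate receptors with a name (1, 1 and 3 genes) was called by edgeR. The gap junction gene GJA3 had 0 UMIs in members, against 53 in SLC6A5 cells, at least 3.78-fold lower against the same floor. SYT7 was higher as 1 of 9 genes of synaptic release tested (log2 fold change 1.02 ± 0.11, edgeR adjusted p = 0.000835), a call that was lost under 4 alternatives, with SLC6A5 cells limited in CHAT and CRHBP, with no such limit in any group, with at least 2 SLC6A9 UMIs and with no filter on low counts. CIB2 was lower as 1 of 5 calcium-binding genes (log2 fold change -1.60 ± 0.38, edgeR adjusted p = 0.0297). The calcium channel subunit CACNB3 was lower as 1 of 24 channel genes (log2 fold change -1.29 ± 0.31, edgeR adjusted p = 0.0307), and CDH23 and NEO1, a netrin receptor family member, were lower among 18 adhesion and guidance genes. CACNB3, CIB2, ADRB1 and GJA3 were not called with DESeq2, in thinned cells, with at least 5 SLC6A9 UMIs, with at least 3 SLC32A1 UMIs or without the library block. NEO1 was at 37.2 and 66.2 CPM in SLC6A9-only cells, against 187 and 128 CPM in SLC6A5 cells (log2 fold change -1.59 ± 0.25, edgeR adjusted p = 0.00497).

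TH, MFSD4A and CARTPT differed also when the SLC6A5 cells were divided by SLC6A9. There were 425 SLC6A5 cells with 0 SLC6A9 UMIs and 1112 with at least 1. Against the cells with 0, 770 genes (6.09%) were called, of which 475 (3.75% of 12650) were higher and 295 (2.33%) lower in SLC6A9-only cells, and against the cells with both transporters 691 (5.46%) were called, of which 432 (3.42%) were higher and 259 (2.05%) lower. TH had log2 fold changes of 4.45 ± 0.49 against cells with 0 SLC6A9 and 4.83 ± 0.39 against cells with both, and MFSD4A of 4.10 ± 0.26 and 3.28 ± 0.20. CARTPT had -1.43 ± 0.27 against cells with 0 SLC6A9 and -2.92 ± 0.25 against cells with both. CDH23 stood at 19.2 and 16.4 CPM in SLC6A9-only cells, against 186 and 230.5 CPM in SLC6A5 cells with 0 SLC6A9 and 40.1 and 30.2 CPM in those with both, and was called in the first comparison only. PRDM13 stood at 335 and 207 CPM in SLC6A9-only cells, against 63.5 and 58.6 CPM in SLC6A5 cells with 0 SLC6A9 and 159.6 and 133 CPM in those with both, and it too was called in the first comparison only. The difference between the 2 kinds of SLC6A5 cells was not tested, and both comparisons share the sums of the SLC6A9-only cells.

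Against cells with neither transporter, 3 nicotinic receptor genes and the channel TRPC4 were higher in SLC6A9-only cells, beside many of the genes above. Of 13539 genes outside the rule 773 (5.71%) were called, 340 (2.51%) higher and 433 (3.2%) lower, 86 and 104 of them with a name. Without the library block 186 were higher and 178 lower. Only 97 and 119 of the 458 and 808 cells with neither transporter held at least 3 SLC32A1 UMIs, and with that number asked of every cell 110 genes were higher and 78 lower, 87 and 59 of them shared with the first calls, and 23 of 57 named genes stayed called. Values under that condition are given as deeper-SLC32A1 values. The comparison shares the member sums with the one above, so the values stand side by side and not as a second line of evidence.

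CHRNA7, a subunit of nicotinic acetylcholine receptors, was at 341 and 279 CPM in SLC6A9-only cells, against 42.2 and 55.8 CPM in cells with neither transporter (log2 fold change 2.61 ± 0.17, edgeR adjusted p = 7.25e-05), with a deeper-SLC32A1 log2 fold change of 1.71, still called. CHRNA5 and CHRNA2, further subunits, had 1.42 ± 0.15 and 1.05 ± 0.09, and both were under the threshold in the deeper-SLC32A1 cells. Of the 6 acetylcholine genes tested these 3 were higher and CHRM4 was lower, a call that was also lost in deeper-SLC32A1 cells. Counts on this list and the next stand beside the 5.71% called over all genes. The cation channel TRPC4 was at 450.5 and 319 CPM in SLC6A9-only cells, against 81.6 and 62.7 CPM in cells with neither transporter (log2 fold change 2.36 ± 0.11, edgeR adjusted p = 2.34e-05), with a log2 fold change of 1.36 in deeper-SLC32A1 cells. Of 24 channel genes tested, CACNA2D3.1, CACNG3 and KCNG3 rose and CACNA2D2 fell. CACNA2D3.1 was at 532 and 423 CPM in SLC6A9-only cells, against 108 and 121 CPM in cells with neither transporter (log2 fold change 2.01 ± 0.14, edgeR adjusted p = 8.66e-05) and CACNA2D2 at 415 and 541 CPM in SLC6A9-only cells, against 1572 and 1399 CPM in cells with neither transporter (log2 fold change -1.67 ± 0.16, edgeR adjusted p = 0.000341), and of these only CACNA2D2 was still called in deeper-SLC32A1 cells, at -1.26.

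PRTG, DACH1, BCL11A and PRDM13 were higher here too. PRTG was at 41.6 and 26.2 CPM in cells with neither transporter (log2 fold change 3.74 ± 0.18, edgeR adjusted p = 2.34e-05), and its deeper-SLC32A1 value was 2.67. The same values were 2.22 and 1.77 for DACH1, 2.14 and 1.47 for BCL11A, and 1.89 and 1.02 for PRDM13. TH had 2.73 and 2.03, the second short of the threshold. NECAB1, a neuronal calcium-binding protein, was at 896 and 828 CPM in SLC6A9-only cells, against 281 and 276 CPM in cells with neither transporter (log2 fold change 1.59 ± 0.12, edgeR adjusted p = 0.00013), and EFNB2, a guidance ligand, at 1052 and 1180.4 CPM in SLC6A9-only cells, against 513 and 507 CPM in cells with neither transporter (log2 fold change 1.09 ± 0.09, edgeR adjusted p = 0.000146), and neither kept its call in deeper-SLC32A1 cells. The protocadherin PCDH9 was at 1121 and 801 CPM in SLC6A9-only cells, against 383 and 333 CPM in cells with neither transporter (log2 fold change 1.36 ± 0.10, edgeR adjusted p = 0.000112), and kept it, at 1.12.

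Among genes lower than in cells with neither transporter, CDH23 was at 19.2 and 16.4 CPM in SLC6A9-only cells, against 156 and 79.2 CPM in cells with neither transporter (log2 fold change -2.71 ± 0.33, edgeR adjusted p = 0.00133). SALL3, from the horizontal cell marker list, also fell, though it was found in few member cells. It was at 1.99 and 2.26 CPM in SLC6A9-only cells, against 21.9 and 18.3 CPM in cells with neither transporter (log2 fold change -3.26 ± 0.51, edgeR adjusted p = 0.00415). SLC17A6, the vesicular glutamate transporter, was also lower, at 18.6 and 11.3 CPM in SLC6A9-only cells, against 54.7 and 51.8 CPM in cells with neither transporter (log2 fold change -1.90 ± 0.35, edgeR adjusted p = 0.00934), and turned to 0.88 in deeper-SLC32A1 cells. The ganglion cell list as a whole summed to 28.5 and 20.9 CPM in SLC6A9-only cells, against 113 and 88.2 CPM in cells with neither transporter, and its part in these differences was not tested. The complexins CPLX3 and CPLX4 and the calcium-binding CALB2.1 were lower as well, at -1.59, -1.72 and -1.75 on the log2 scale. In deeper-SLC32A1 cells CALB2.1 was at -0.88 and not called, and CPLX3, CPLX4 and SALL3 did not pass the filter on low counts. CPLX3 and CPLX4 were not called with DESeq2, in thinned cells, without the library block or without the cells of at least 5 CLU UMIs either. BEGAIN, a scaffold of the synapse, was at 22.6 and 53.8 CPM in SLC6A9-only cells, against 189.7 and 288 CPM in cells with neither transporter (log2 fold change -2.71 ± 0.14, edgeR adjusted p = 2.72e-05), with a log2 fold change of -0.13 in deeper-SLC32A1 cells. DAPK1, a calcium-regulated kinase, was at 15.3 and 22.1 CPM in SLC6A9-only cells, against 112 and 77.8 CPM in cells with neither transporter (log2 fold change -2.34 ± 0.21, edgeR adjusted p = 0.000243) and stayed called in deeper-SLC32A1 cells, with -2.20. CRHR2.2, a copy of a receptor for the hormone that CRHBP binds, was at 86.3 and 129.6 CPM in SLC6A9-only cells, against 281 and 229.8 CPM in cells with neither transporter (log2 fold change -1.27 ± 0.17, edgeR adjusted p = 0.0021), and was the only peptide gene called.

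The SLC6A9-only cells were not alike. Clustering on 2000 variable genes, with the genes of the function lists and of the rule left out but marker genes such as CLU and GLUL kept in, gave 5 clusters of 127, 115, 102, 43 and 27 cells, each with cells of both libraries. The clusters are described by their genes, without a test, since the same cells defined them. At a lower resolution of 0.4 there were 4, at a resolution of 2 there were 10, and with fewer variable genes there were again 5.

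Cluster 1 was led by TLN2, PDE11A, BMPER and INKA1. TLN2, a talin that links integrins to actin, stood at 229 CPM, against 41.1 CPM in the other members, and PDE11A, a cyclic nucleotide phosphodiesterase, at 213 against 46.2 CPM. Most TH was found here, at 75.7 CPM and in 48 of the 60 cells with a TH UMI, against 10.6, 5.35, 0 and 0 CPM in clusters 2 to 5. RXFP1, a relaxin receptor, was at 415 CPM, CHRNA7 at 662 CPM and the glutamate receptor GRM8 at 921 CPM, each the highest of the 5 clusters. DACH1 stood at 609 CPM, and was under 100 CPM only in cluster 3, at 59.9 CPM.

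Cluster 2 was led by MFSD4A, which 99.1% of its cells held, at 1119 CPM against 23.4 CPM in the other members. CRYBA1 followed at 304 CPM. The adhesion molecule SDK2 stood at 2011 CPM, against 105, 362, 62.3 and 74.4 CPM in clusters 1, 3, 4 and 5. The orphan nuclear receptor NR4A2 reached 137 CPM, the potassium channel KCNH1 248 CPM and PRDM13 485 CPM. PLA2G3 and ERCC6L were shared by clusters 1 and 2, PLA2G3 at 262 and 283 CPM and ERCC6L at 57.6 and 79.3 CPM, and lay at or under 17.1 and 4.28 CPM in the others.

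Cluster 3 was led by CLU, AQP8, PYGL, MEGF6 and CNR1, with GLUL at rank 7. CLU and GLUL are on the Müller glia list. It took 31.4% of its cells from replicate 1, the lowest share of the 5. CLU stood at 1125 CPM but was found in only 37.3% of its cells. AQP8 and PYGL were found in 23.5% and 24.5% of them, and CNR1 in 62.7%. At least 10 UMIs of CLU, of AQP8 and of PYGL were each held by 10 of the 102 cells, and of GLUL by 9. The levels of these genes thus do not describe most cells of the cluster. Its SLC6A9 level of 490.2 CPM was the lowest, with 958 and 898 CPM in clusters 1 and 2. GAD1 reached 899 CPM, and 20 of the 35 member cells with at least 10 GAD1 UMIs lay here. CARTPT stood at 141 CPM, against 13.2 CPM or less in the other clusters, while PRTG, at 52.4 CPM, was the lowest. Whether this cluster holds cells mixed with glial RNA was not tested.

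Cluster 4 was led by the protease ADAMTS17 and by SYT13 and CBLN1.2, and held the serotonin receptors HTR2A and HTR4 at 424 and 194 CPM, against 219 and 118 CPM in cluster 5, which came next, and 66.1 and 23.5 CPM in cluster 1. EFNB2 at 2299 CPM, NECAB1 at 2108 CPM, TRPC4 at 928 CPM and the potassium channel KCND1 at 1810.3 CPM were highest there. Cluster 5 was led by the matrix genes COL18A1 and HMCN1, the growth factor FGF6 and the transcription factor ZEB2, and held NFIA at 3828 CPM and FOXP2 at 534 CPM. TH, MFSD4A and BCL11A were at 0 UMIs in its 27 cells, and TH at 0 in the 43 cells of cluster 4.

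**Figure D5:**
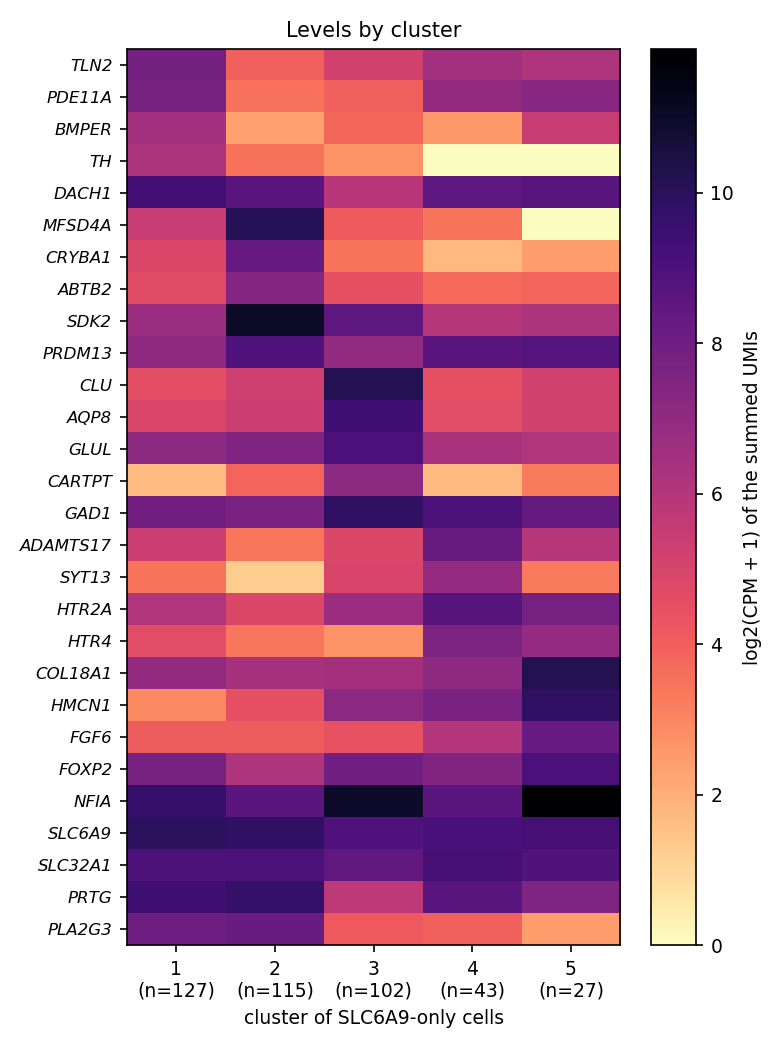
Level by cluster of SLC6A9-only cells (columns, number of cells below each) of leading genes and of genes left out of the clustering (rows), as log2(CPM + 1) of the UMIs summed over the cluster. MFSD4A reaches 1119 CPM in cluster 2, CLU 1125 CPM in cluster 3 and TH 75.7 CPM in cluster 1, while SLC32A1 stays between 334 and 599 CPM.

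The cells were then looked up from the other side, by leading genes of clusters 1, 2, 4 and 5 and by TH. Of all 407 cells of both libraries with at least 2000 UMIs and at least 5 MFSD4A UMIs, 95.3% held SLC32A1 (exact 95% interval 92.8 to 97.2%), 87.0% held SLC6A9 (83.3 to 90.1%) and 12.8% held SLC6A5 (9.69 to 16.4%), at a median of 7001 UMIs. Only 85 of them (20.9%, 17.0 to 25.2%) were SLC6A9-only cells by the rule, and 15 were SLC6A5 cells. Members hold SLC32A1 and SLC6A9 and lack SLC6A5 by the rule. Part of each share, here and in the gates below, was thus set in advance, and the shares are a description. The leading genes looked up for clusters 1, 4 and 5 marked cells of which fewer were members, and none of cluster 3 was looked up. SLC6A9 was held by 42.8% of 467 cells with at least 3 TLN2 UMIs, 33.9% of 888 with at least 3 PDE11A, 29.3% of 607 with at least 3 ADAMTS17 and 59.7% of 752 with at least 5 COL18A1 UMIs, at medians of 14429, 10052, 13392 and 12628 UMIs. Of these cells 8.57%, 4.95%, 3.79% and 4.12% were SLC6A9-only cells. Of 193 cells with at least 2 TH UMIs, 46 in replicate 1 and 147 in replicate 2, 49.2% held SLC6A9 (42.0 to 56.5%), 50.3% held SLC32A1 and 6.22% held SLC6A5 (3.25 to 10.6%), 15 were SLC6A9-only cells and 0 were SLC6A5 cells, with an exact upper limit of 1.89%. These gates were chosen after the values were seen.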

How the data were processed

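Retinas of adult sea lamprey were isolated, dissociated with papain and profiled in 2 droplet-based 3′ libraries, the labels adding a sort by FACS. The authors deposited, per library, a filtered matrix of raw UMI counts per gene and cell, made with Cell Ranger (version 7.0.1 per the file headers, 6.0.1 per the labels). No genome was used here. Of 24979 genes 16990 had no name in the deposited lists, the study's gene table or RefSeq (assembly UKy_Petmar_22M1.pri1.0), which limits every gene list.

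Cells were selected by UMI counts with Python 3.11.15, and counts were summed per group and library. The sums held 1507215 and 1767194 UMIs for SLC6A9-only cells, 8385287 and 6926521 for SLC6A5 cells and 3747803 and 5679981 for cells with neither transporter. The test was the quasi-likelihood one of edgeR 4.0.16, run under R 4.3.3 after TMM scaling and the filterByExpr filter, with the library as a block (Benjamini-Hochberg adjustment over all genes tested). Each library gave 1 sum of every group, so the libraries pair the sums. A gene was called at an adjusted p under 0.05 and at least 2-fold. Named genes were up to 12 per direction with the largest fold, the same direction in both libraries and a UMI in at least 10% of cells of the higher group, plus called members of gene lists (at most 4 per direction), called markers and leading genes of clusters. Clusters came from Pearson residuals, 30 components, 20 neighbours and Leiden clustering (leidenalg 0.10.2) at resolution 0.8. The scripts were tested on simulated data. Alternatives covered DESeq2 1.42.0, other normalization, filters, count limits, thinning, fits and left-out libraries, and 2 more were chosen after seeing the data. Members and gene lists were chosen with earlier results of these data known. Intervals are exact binomial and cover counting error only. Some genes that the naming rule selects are not reported here.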

Additional observations from a re-analysis of the deposited data

How the results depend on the processing

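Each alternative was run on both comparisons. Against SLC6A5 cells, 479 genes were higher and 284 lower in SLC6A9-only cells, and 247 were higher with cells thinned to 2000 UMIs, 250 with at least 5 SLC6A9 UMIs and 212 with at least 3 SLC32A1 UMIs. Without the replicate block, which pairs the sums of 1 library, 129 were higher and 124 lower against SLC6A5 cells, and 186 higher and 178 lower against cells with neither transporter. Against cells with neither transporter, asking at least 3 SLC32A1 UMIs of every cell left 110 higher and 78 lower. With 1 library left out, 628 to 662 of 763 calls against SLC6A5 cells and 611 to 724 of 773 against cells with neither transporter were at least 2-fold in the same direction. The calls came from the same 2 libraries, so most of that agreement was set by the selection. The share of member cells, 1.92%, was 2.76% with at least 2 SLC6A9 UMIs, 0.934% with at least 5, 1.20% with at least 3 SLC32A1 UMIs, 0.664% with the rule on thinned cells, and 1.67 to 2.16% with 1 library left out. At resolution 2 there were 10 clusters in place of 5. With SLC6A5 cells limited in CHAT and CRHBP, SLC5A7 turned to 0.15, ISL1 to 0.33, GULP1 to 0.11 and ZFHX3 to 0.087 on the log2 scale. CLU was at -0.18 without cells of at least 5 CLU UMIs, a value bounded in advance by leaving out cells on their CLU count. That setting was chosen after seeing the data, as was the one with no limit on CHAT and CRHBP. Against cells with neither transporter, SLC17A6 turned to 0.88 with at least 3 SLC32A1 UMIs. The limited setting changed which cells were compared, and for SLC17A6 the cause was not tested. DESeq2 called 357 higher and 222 lower genes against SLC6A5 cells, and 280 and 323 against cells with neither transporter. With a median of 4 SLC6A9 UMIs per member cell, a cell with 0 SLC6A5 UMIs may still express SLC6A5 at this depth.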
